A study of Mus musculus with 4 samples.

Results

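Redox and aldehyde detoxification enzymes were followed in mouse neural progenitor cells depleted of Rybp, which encodes a Polycomb group protein. The members were taken by name and biotype alone. They are the protein-coding genes of the aldehyde dehydrogenase, glutathione transferase, glutathione peroxidase, peroxiredoxin, thioredoxin and superoxide dismutase families, with catalase, the enzymes of glutathione synthesis and reduction, Nqo1, the haem oxygenases, Cdo1 and the regulators Nfe2l1, Nfe2l2 and Keap1. Aldh1l1 was left out by the rule. This gave 70 genes of the 13881 in the deposited table, of which 12187 are protein-coding.

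Cells were isolated from the forebrain of C57bl/6 embryos on embryonic day 14 and expanded as proliferating cultures with EGF and FGF-2 at 20 ng/ml each. Both groups also had B27 at 2%. The shRybp group received a lentivirus with a short hairpin RNA against Rybp. The control group is labelled ctrl, and the sources used here do not give the vector it received. There were 2 libraries per group, with total counts between 14355308 and 17598873, and the labels do not say whether replicates came from separate cultures, so p-values measure only how these libraries vary, and that variation may be technical.

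These enzymes work in linked cycles. Superoxide dismutases turn superoxide into hydrogen peroxide, which catalase, the glutathione peroxidases and the peroxiredoxins reduce, and glutathione reductase and the thioredoxin reductases recharge the electron carriers with NADPH. Glutathione transferases attach glutathione to reactive compounds, and aldehyde dehydrogenases oxidise aldehydes from lipids, amino acids and retinoids. NRF2, the protein of Nfe2l2, switches on many of these genes under oxidative stress and is held back by KEAP1, and in brain much of the glutathione supply is attributed to astrocytes.

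Rybp had 3.01 and 2.66 FPKM in the shRybp libraries, against 4.43 and 3.95 FPKM in the control libraries. The knockdown was partial, with the transcript at 65.8% of control (log2 change, the log2 of shRybp over control as edgeR fits it, -0.60, SE 0.12, edgeR adjusted p = 0.0017). FPKM is a level scaled by gene length and library size, so that genes can be set beside each other. The progenitor genes Nes and Sox2 were present at high levels. Nes had a mean of 240.1 FPKM in shRybp and 147 FPKM in control, and Sox2 99.95 FPKM in shRybp and 134 FPKM in control. Other progenitor genes were low, such as Pax6 at a mean of 3.48 FPKM in shRybp and 3.45 FPKM in control. Prom1, at 0.647 FPKM in shRybp and 0.773 FPKM in control, was below the level for testing. For the marker counts that follow, 16.3% of all genes tested rose and 16.7% fell at an edgeR adjusted p under 0.05. Of 13 radial glia and progenitor markers tested, 3 rose and 6 fell, with 1 rising without control replicate 2 or without shRybp replicate 2. Astrocyte markers were also present and lower in shRybp. Of 22 tested 20 fell and 1 rose (median log2 change -0.87), and the summed level of the 23 listed was 1528 and 1631 FPKM in shRybp, against 2700 and 2708 FPKM in control. Of 12 oligodendrocyte lineage markers tested 5 fell and 0 rose, and of 12 neuron markers 7 fell and 2 rose. The summed level of the 14 neuron markers in the table went the other way, at 404.2 and 387.4 FPKM in shRybp, against 343.7 and 315.4 FPKM in control. This came from Gap43, at 259 and 250 FPKM in shRybp, against 158 and 135 FPKM in control. The rest of the neuron list together was lower in shRybp. The summed level of oligodendrocyte lineage markers was 793.9 and 821.5 FPKM in shRybp, against 874.3 and 910.3 FPKM in control. That of progenitor markers was 2781 and 2693 FPKM in shRybp, against 3458 and 3196 FPKM in control. The progenitor sum was lower because of Fabp7, at 1468 and 1351 FPKM in shRybp, against 2210 and 1982 FPKM in control. The rest of the progenitor list together was not lower. Few markers of microglia, vessels, meninges, choroid plexus or ependyma were in the table. Of 15 microglia and macrophage markers 4 were listed, with a summed level of 16.0 and 15.4 FPKM in shRybp and 13.9 and 17.3 FPKM in control. Of 14 endothelial and mural, 11 meningeal and fibroblast and 11 choroid plexus and ependymal markers, 5, 1 and 3 were listed. Of those tested Acta2 and Foxc1 rose and Foxj1 fell, and these 3 were named after their values were seen. Acta2 lost its call in DESeq2 and without control replicate 2 or shRybp replicate 1 (log2 change 0.474 to 0.793 over its alternatives). Foxc1 lost its call in DESeq2, in the limma fits and without control replicate 2 or shRybp replicate 2 (0.329 to 0.598). In bulk RNA, fewer cells of a type and less RNA per cell cannot be told apart, and the part of a change in cell makeup in the results below was not tested.

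Of the 70 members, 67 reached the mean of 1 FPKM required for testing. In shRybp 10 rose and 16 fell at an edgeR adjusted p under 0.05, together 38.8% of those tested, where 33.0% of all 12062 genes tested and 35.6% of the 10782 protein-coding ones passed. The share of members that rose was 14.9% against 16.3% of all genes, and the share that fell was 23.9% against 16.7%. These shares are near the background, so the number of calls sets the members little apart from other genes. The median log2 change was -0.02 over the members and 0.00 over all genes. Members took 0.528% and 0.525% of counts in shRybp and 0.527% and 0.519% in control, so the total moved little while single enzymes moved in both directions. Changes of 1.5-fold or more were mostly falls, with 7 members lower and 1 higher, beside 587 lower and 340 higher among all genes. The 1 higher was Sod3, which reached the level for testing only through its shRybp libraries. The shRybp and control ranges of FPKM were separate for 49 of 67 members (73.1%), beside 67.5% of all genes tested.

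**Figure D1:**
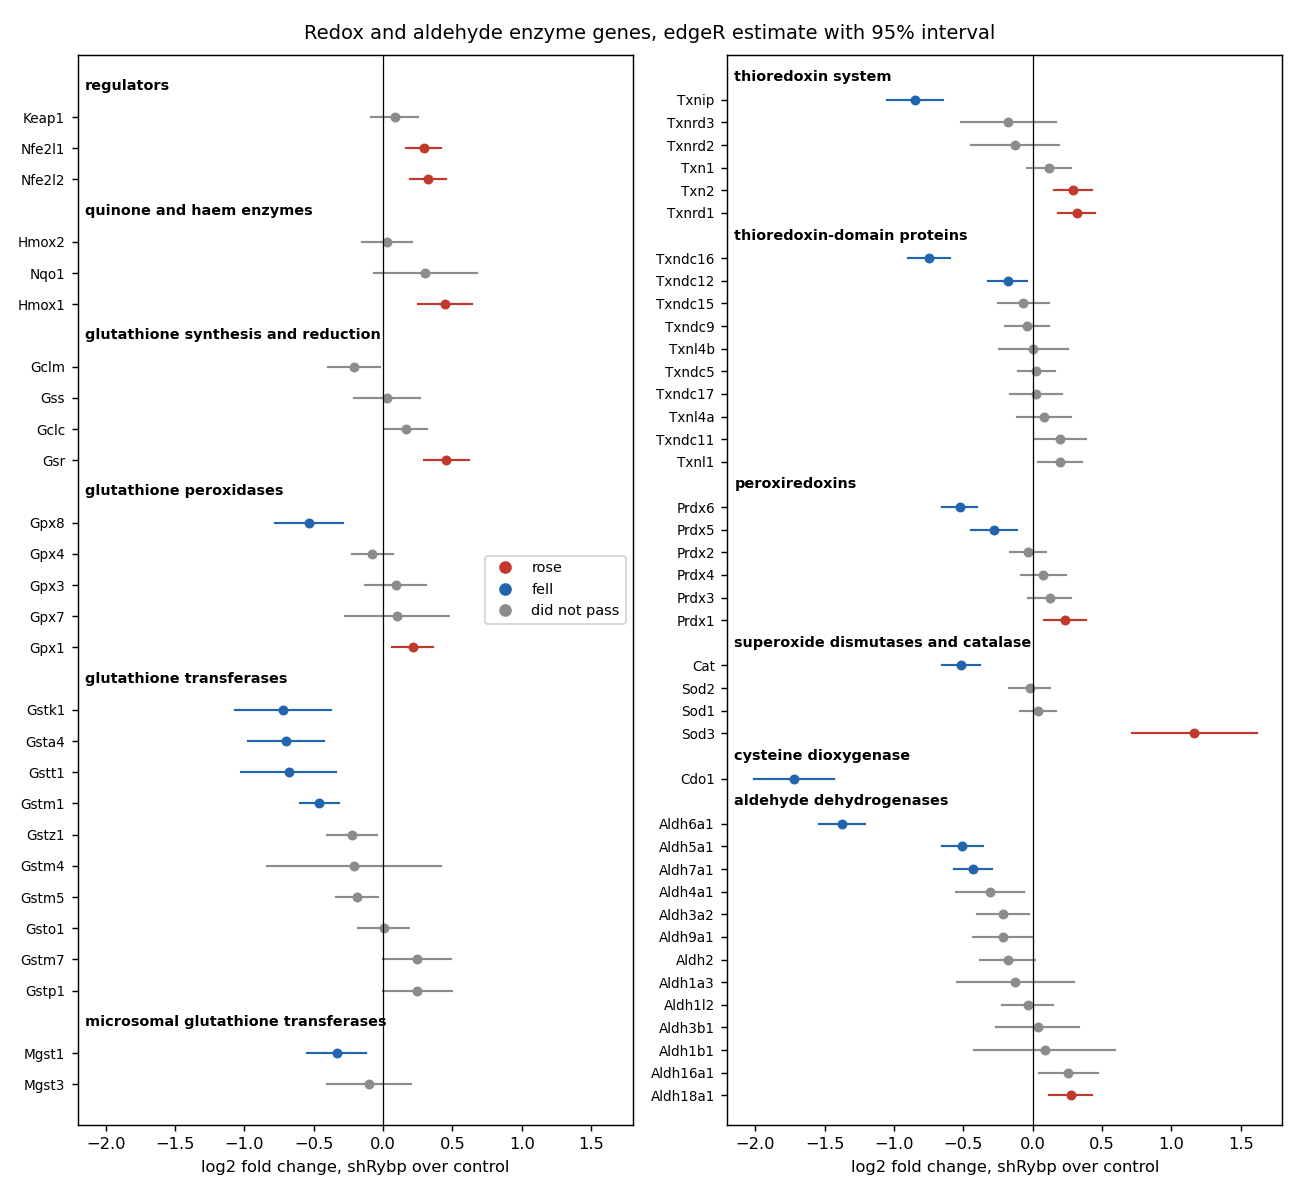
Log2 fold change of shRybp over control for the 67 members tested, grouped by family, with points for the edgeR estimate and lines for the 95% interval. Red members rose, blue members fell and grey members did not pass the test, and Cdo1 and Aldh6a1 lie farthest to the left and Sod3 farthest to the right.

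The regulators Nfe2l2 and Nfe2l1 were higher in shRybp while Keap1 did not pass the test. Nfe2l2 (mm10 chromosome 2, 75675513 to 75704641, minus strand) had 41.9 and 42.2 FPKM in the shRybp libraries, against 32.6 and 32.8 FPKM in the control libraries. Both shRybp libraries lay above both controls, and the replicates lay close together (log2 change 0.33, SE 0.06, edgeR adjusted p = 0.0013). Nfe2l1, which encodes NRF1, a related factor that also acts on proteasome genes, had 46.9 and 48.7 FPKM in shRybp and 38.2 and 38.0 FPKM in control (log2 change 0.29, SE 0.06, edgeR adjusted p = 0.0022). Keap1, the adaptor that directs NRF2 to degradation, had 12.4 and 12.7 FPKM in shRybp and 11.8 and 11.2 FPKM in control (log2 change 0.09, 95% interval -0.08 to 0.26, edgeR adjusted p = 0.44). Transcript levels say nothing of NRF2 protein, which is set mainly by its degradation.

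Of the quinone and haem enzymes Hmox1 was higher, and Nqo1 and Hmox2 did not pass. Hmox1, the stress-inducible haem oxygenase, had 18.0 and 18.2 FPKM in shRybp and 12.2 and 13.7 FPKM in control, without overlap (log2 change 0.45, SE 0.09, edgeR adjusted p = 0.0022). Nqo1, a quinone reductase and a standard NRF2 readout, had 4.88 and 4.62 FPKM in shRybp and 3.32 and 4.19 FPKM in control. The groups of Nqo1 did not overlap, but its control libraries lay apart and it did not pass (log2 change 0.31, 95% interval -0.07 to 0.68, edgeR adjusted p = 0.20). Hmox2, the constitutive haem oxygenase, had 22.2 and 20.9 FPKM in shRybp and 20.9 and 20.4 FPKM in control and did not pass (log2 change 0.03).

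Of the enzymes that make and recycle glutathione, the reductase rose, and the synthetic enzymes did not pass, although both subunits of the ligase did under some alternatives. Gsr (mm10 chromosome 8, 33652523 to 33698163, plus strand), which reduces oxidised glutathione, had 28.9 and 29.4 FPKM in shRybp, against 21.5 and 19.9 FPKM in control. This is a separation well beyond the spread of the replicates (log2 change 0.45, SE 0.08, edgeR adjusted p = 0.0006). Gclc, the catalytic subunit of the rate-limiting ligase, had 19.7 and 19.6 FPKM in shRybp and 17.2 and 17.0 FPKM in control (log2 change 0.16, edgeR adjusted p = 0.094). Gclc passed with library totals in place of TMM scaling (edgeR adjusted p = 0.043), in limma on log2(FPKM + 1) and log2(FPKM + 0.1) (adjusted p = 0.049 in each) and with the replicate block (edgeR adjusted p = 0.030), with adjusted p of 0.030 to 0.28 over its alternatives. Gclm, the modifier subunit of the same ligase, lay on the other side, with 7.84 and 7.01 FPKM in shRybp and 8.30 and 8.41 FPKM in control (log2 change -0.21, edgeR adjusted p = 0.083). Neither subunit passed, and whether they differ from each other was not tested. Gclm passed without shRybp replicate 1 (edgeR adjusted p = 0.044) and with the replicate block (0.040), with adjusted p of 0.040 to 0.44 over its alternatives. Gss, which completes glutathione, had 2.90 and 2.80 FPKM in shRybp and 2.87 and 2.58 FPKM in control (log2 change 0.03), and it overlaps the far more abundant Acss2 on the opposite strand.

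Promoter sequences are shown for members with the core of the antioxidant response element, the DNA word that NRF2 and its small MAF partners bind, because Nfe2l2 and several of its known targets moved. The windows run from 250 bases before to 50 bases after each RefSeq start site on GRCm38.p6, and 57 members had one. The word searched was TGACNNNGC on both strands. It was found in 11 of the 57 members (19.3%), beside 14.0% of all 27025 genes with a window. By outcome it was found in 3 of 7 members that rose, 1 of 12 that fell and 7 of 35 that did not pass, and in none of the members below the level for testing. The members that rose and hold it are Txnrd1, Prdx1 and Nfe2l2 itself, shown with Gclm, which did not pass, and Mgst1, which fell. Each line gives the 250 bases before the start site, read 5′ to 3′ along the gene, with the 9 matching bases in capitals. The match of Nfe2l2 reads along the gene, and the others read along the opposite strand and so appear as the reverse complement.
Txnrd1, chr10:82858956-82859205, plus strand: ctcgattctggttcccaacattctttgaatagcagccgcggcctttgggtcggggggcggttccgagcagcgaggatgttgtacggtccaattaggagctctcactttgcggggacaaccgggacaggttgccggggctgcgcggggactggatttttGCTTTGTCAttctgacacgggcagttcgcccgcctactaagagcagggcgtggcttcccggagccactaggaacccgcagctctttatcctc
Prdx1, chr4:116685349-116685598, plus strand: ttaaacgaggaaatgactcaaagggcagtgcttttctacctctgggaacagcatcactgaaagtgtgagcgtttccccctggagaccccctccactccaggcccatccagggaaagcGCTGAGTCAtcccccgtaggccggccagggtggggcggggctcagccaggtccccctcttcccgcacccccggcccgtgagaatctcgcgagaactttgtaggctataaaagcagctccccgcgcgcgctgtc
Nfe2l2, chr2:75704664-75704913, minus strand: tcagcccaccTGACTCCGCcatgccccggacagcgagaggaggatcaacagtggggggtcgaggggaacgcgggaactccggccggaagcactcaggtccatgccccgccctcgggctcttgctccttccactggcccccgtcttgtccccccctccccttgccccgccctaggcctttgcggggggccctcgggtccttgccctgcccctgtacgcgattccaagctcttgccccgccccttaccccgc
Gclm, chr3:122245307-122245556, plus strand: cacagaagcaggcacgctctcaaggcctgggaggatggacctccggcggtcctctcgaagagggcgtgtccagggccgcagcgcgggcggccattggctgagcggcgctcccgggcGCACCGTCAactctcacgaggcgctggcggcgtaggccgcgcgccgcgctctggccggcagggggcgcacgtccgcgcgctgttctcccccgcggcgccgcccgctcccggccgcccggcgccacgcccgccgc
Mgst1, chr6:138140277-138140526, plus strand: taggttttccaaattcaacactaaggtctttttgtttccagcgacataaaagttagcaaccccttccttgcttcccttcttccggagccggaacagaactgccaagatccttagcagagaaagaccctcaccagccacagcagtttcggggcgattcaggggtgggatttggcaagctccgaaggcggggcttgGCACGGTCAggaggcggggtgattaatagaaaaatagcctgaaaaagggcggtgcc
The first matching base lies 92 bases before the start site in Txnrd1, 133 in Prdx1, 240 in Nfe2l2, 134 in Gclm and 56 in Mgst1. A match of these letters is a description of the window and not a binding site, and members without it may hold the element elsewhere.

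In the thioredoxin system the cytosolic reductase and the mitochondrial thioredoxin rose and the inhibitor Txnip fell. Txn1, the cytosolic thioredoxin, was the member with the highest level, at 621 and 594 FPKM in shRybp and 582 and 510 FPKM in control, above 99.8% of the protein-coding genes in the table. It did not pass (log2 change 0.12, edgeR adjusted p = 0.24), though it did without control replicate 1 (edgeR adjusted p = 0.049; range over its alternatives 0.049 to 0.92). Txnrd1, the selenoenzyme that recharges it, had 40.6 and 43.2 FPKM in shRybp and 33.2 and 32.4 FPKM in control, both shRybp libraries being higher (log2 change 0.32, SE 0.06, edgeR adjusted p = 0.0018). Txn2, the mitochondrial thioredoxin, had 30.4 and 31.9 FPKM in shRybp and 25.1 and 24.6 FPKM in control (log2 change 0.29, SE 0.06, edgeR adjusted p = 0.0039). Its reductase Txnrd2 stood far lower, at 2.20 and 2.89 FPKM in shRybp and 2.76 and 2.67 FPKM in control, with overlapping groups (log2 change -0.13). Txnrd3 also did not pass (-0.18).

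Txnip (mm10 chromosome 3, 96557957 to 96561883, plus strand) encodes an arrestin-like protein that binds thioredoxin and limits glucose uptake, and glucose metabolites induce it. It had 9.82 and 10.8 FPKM in shRybp, against 17.0 and 19.3 FPKM in control. Both shRybp libraries were far below both controls, at 55.4% of the control level (log2 change -0.85, SE 0.09, edgeR adjusted p = 2.9e-05).

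Of the 10 other proteins with a thioredoxin fold or name, 2 fell (20.0%, beside 16.7% of all genes) and 0 rose (beside 16.3%). Txndc16 had 4.96 and 4.91 FPKM in shRybp and 7.92 and 8.25 FPKM in control, with no overlap (log2 change -0.75, SE 0.07, edgeR adjusted p = 8.1e-06). It overlaps Gpr137c on the opposite strand, which had 926 counts in all, beside 4900 of Txndc16. Txndc12, a protein of the endoplasmic reticulum named after its values were seen, had 41.4 and 41.0 FPKM in shRybp and 45.6 and 45.3 FPKM in control (log2 change -0.18, edgeR adjusted p = 0.049). Its call ended without any 1 of the 4 libraries (edgeR adjusted p = 0.097 to 0.20; range over all its alternatives 0.0081 to 0.20). The other 8 lay between -0.07 and 0.20 on the log2 scale and did not pass, with Txnl4b, a splicing factor relative, at 0.00. Txnl1 (0.20, edgeR adjusted p = 0.058) did pass with library totals (edgeR adjusted p = 0.026) and with the replicate block (0.0033).

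Peroxiredoxins, which reduce peroxides with thioredoxin or glutathione, were split. Prdx6, which uses glutathione and repairs oxidised phospholipids, had 39.6 and 39.3 FPKM in shRybp and 56.4 and 54.6 FPKM in control, and the groups lay far apart (log2 change -0.53, SE 0.06, edgeR adjusted p = 3.6e-05). Prdx5, found in mitochondria, peroxisomes and cytosol, had 26.9 and 28.4 FPKM in shRybp and 33.8 and 31.8 FPKM in control (log2 change -0.28, SE 0.08, edgeR adjusted p = 0.013). Prdx1, the abundant cytosolic form, had 138 and 125 FPKM in shRybp and 113 and 106 FPKM in control (log2 change 0.23, SE 0.07, edgeR adjusted p = 0.023). Both of these calls were lost without some libraries, while the direction held. Prdx5 was no longer called when control replicate 1 was left out (log2 change -0.23, edgeR adjusted p = 0.090) or shRybp replicate 1 was (-0.25, edgeR adjusted p = 0.080), with adjusted p of 0.0016 to 0.090 over its alternatives. Prdx1 was not when control replicate 2 was left out (log2 change 0.17, edgeR adjusted p = 0.13) or shRybp replicate 1 was (0.15, edgeR adjusted p = 0.19), with adjusted p of 0.00077 to 0.19 over its alternatives. Prdx2, the other abundant cytosolic form, had 106 and 104 FPKM in shRybp and 103 and 107 FPKM in control, with overlapping groups (log2 change -0.03, 95% interval -0.16 to 0.10). Prdx3 of mitochondria (0.12) and Prdx4 of the endoplasmic reticulum (0.07) did not pass either. Of the 31-base words of the Prdx1 transcript 17.8% also occur in transcripts of other genes, mainly pseudogenes, so some of its reads could have been assigned elsewhere.

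Catalase, the peroxisomal enzyme that splits hydrogen peroxide, was lower. Cat had 39.2 and 37.4 FPKM in shRybp, against 52.6 and 54.1 FPKM in control. The groups were well separated (log2 change -0.51, SE 0.06, edgeR adjusted p = 7.3e-05). The intracellular superoxide dismutases stayed within narrow intervals. Sod1 of the cytosol had 39.8 and 40.0 FPKM in shRybp and 38.2 and 37.7 FPKM in control (log2 change 0.04, 95% interval -0.09 to 0.17). Sod2 of mitochondria had 11.6 and 11.1 FPKM in shRybp and 11.6 and 10.9 FPKM in control (log2 change -0.02, 95% interval -0.17 to 0.12). Sod3, the secreted form (mm10 chromosome 5, 52363791 to 52371418, plus strand), was low and had the largest rise among the members, at 1.64 and 2.26 FPKM in shRybp and 0.850 and 0.854 FPKM in control (log2 change 1.16, SE 0.21, edgeR adjusted p = 0.0010). These came from 88 and 139 counts in shRybp and 56 and 51 in control, and the shRybp libraries differed from each other by more than the controls did. The control mean of 0.852 FPKM was under 1 FPKM, so Sod3 reached the level for testing only through its shRybp libraries.

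Among the glutathione peroxidases 1 rose (20.0%, beside 16.3% of all genes), 1 fell (20.0%, beside 16.7%) and 3 did not pass. Gpx8, a membrane protein of the endoplasmic reticulum, had 15.5 and 15.9 FPKM in shRybp and 24.1 and 20.0 FPKM in control (log2 change -0.53, SE 0.11, edgeR adjusted p = 0.0033). Gpx1, the main cytosolic selenoenzyme, had 61.6 and 65.2 FPKM in shRybp and 52.4 and 54.3 FPKM in control (log2 change 0.21, SE 0.07, edgeR adjusted p = 0.030). The groups of Gpx1 did not overlap, but its call ended without any 1 of the 4 libraries (edgeR adjusted p = 0.054 to 0.21; range over all its alternatives 0.0034 to 0.21). Gpx4, which reduces lipid peroxides in membranes and guards against ferroptosis, had 49.1 and 47.4 FPKM in shRybp and 49.5 and 49.7 FPKM in control (log2 change -0.08, 95% interval -0.22 to 0.07). Most of the 31-base words of Gpx4 (66.8%) are shared, mainly with a processed pseudogene. The secreted Gpx3 (0.09) and Gpx7 of the endoplasmic reticulum (0.10) had overlapping groups.

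Among the glutathione transferases 4 of 10 tested fell (40.0%, beside 16.7% of all genes) and 0 rose (beside 16.3%). The family is small and was not tested as a set. Gstm1, the most abundant of them, had 88.7 and 96.6 FPKM in shRybp, against 123 and 126 FPKM in control (log2 change -0.46, SE 0.06, edgeR adjusted p = 0.00018). Gstk1, the mitochondrial and peroxisomal transferase, had 3.88 and 4.72 FPKM in shRybp and 7.38 and 6.48 FPKM in control (log2 change -0.72, SE 0.16, edgeR adjusted p = 0.0043). Gsta4, which acts on the lipid aldehyde 4-hydroxynonenal, had 7.14 and 7.16 FPKM in shRybp and 11.6 and 11.1 FPKM in control (log2 change -0.70, SE 0.13, edgeR adjusted p = 0.0011). In each of these 3 both shRybp libraries lay below both controls. Gstt1 had 3.78 and 4.34 FPKM in shRybp and 6.76 and 5.94 FPKM in control, again without overlap (log2 change -0.68, SE 0.16, edgeR adjusted p = 0.0056).

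Other transferases did not pass, and some lay on the higher side. Gstp1 had 40.6 and 35.4 FPKM in shRybp and 27.2 and 35.3 FPKM in control, with 1 shRybp and 1 control library almost equal (log2 change 0.25, edgeR adjusted p = 0.11). It passed without control replicate 2 (edgeR adjusted p = 0.0028) and without shRybp replicate 2 (0.049), with a range over its alternatives of 0.0028 to 0.66. Of its 31-base words 67.5% are shared, mainly with Gstp2 and a pseudogene. Gstm1 shares 34.3% of its words with relatives, so reads may be split among members of this cluster on chromosome 3. Its neighbours Gstm5 (-0.19), Gstm7 (0.25) and Gstm4 (-0.21) and the distant Gsto1 (0.00) and Gstz1 (-0.22) did not pass. With the replicate block Gstm5, Gstz1 and Gstm7 did (edgeR adjusted p = 0.012, 0.030 and 0.047). Gstm5 and Gstz1 also passed where a mean of 5 FPKM was required (edgeR adjusted p = 0.034 and 0.037). Gstm6 was below the level for testing, with 0.385 and 0.887 FPKM in shRybp and 0.941 and 0.913 FPKM in control. Of the membrane-bound transferases Mgst1 fell, with 18.9 and 17.8 FPKM in shRybp and 24.3 and 20.8 FPKM in control (log2 change -0.33, SE 0.10, edgeR adjusted p = 0.019). Its call ended without control replicate 1 (edgeR adjusted p = 0.17) and without shRybp replicate 2 (0.081), with a range over its alternatives of 0.0019 to 0.17. Mgst3 had 9.70 and 8.38 FPKM in shRybp and 9.26 and 9.65 FPKM in control (log2 change -0.10).

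**Figure D2:**
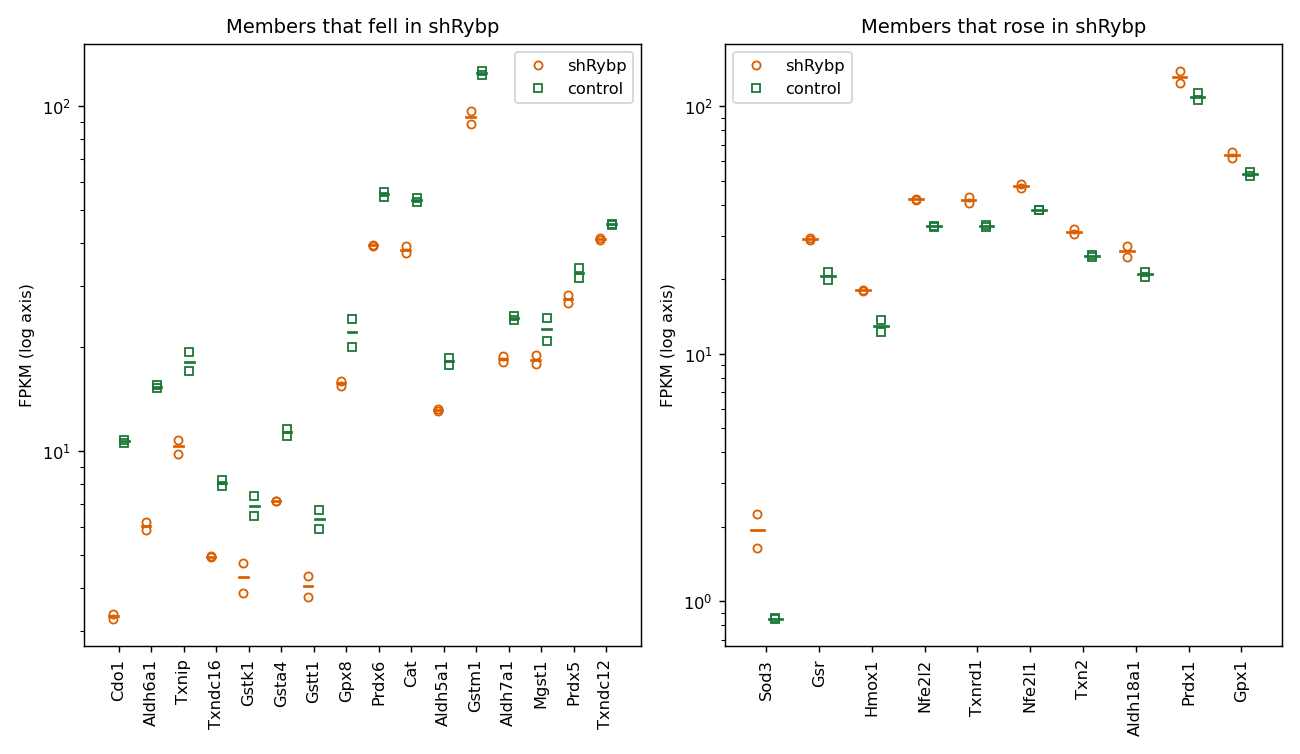
FPKM on a log axis in each library for the 16 members that fell (left panel) and the 10 that rose (right panel), with shRybp circles left of control squares and short lines at the group means. The values of the groups do not overlap for any of these 26 members, which were picked by a test on these same libraries. Their separation is therefore no further evidence for the calls. The gap is widest for Cdo1 and Aldh6a1 among those that fell and for Sod3 among those that rose.

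The aldehyde dehydrogenases held one of the largest falls in the whole set. Aldh6a1 (mm10 chromosome 12, 84430717 to 84451004, minus strand), the mitochondrial enzyme of valine and thymine breakdown, had 5.90 and 6.24 FPKM in shRybp, against 15.2 and 15.5 FPKM in control. The level in shRybp was 38.6% of control (log2 change -1.37, SE 0.08, edgeR adjusted p = 1.7e-07). Its opposite-strand neighbour Bbof1 had 243 counts in all, beside 4069 of Aldh6a1. Aldh5a1, the succinic semialdehyde dehydrogenase that ends GABA breakdown, had 13.1 and 13.2 FPKM in shRybp and 18.6 and 17.8 FPKM in control (log2 change -0.51, SE 0.07, edgeR adjusted p = 0.00013). Aldh7a1, which oxidises an aldehyde of lysine breakdown, had 18.1 and 18.8 FPKM in shRybp and 24.0 and 24.6 FPKM in control (log2 change -0.43, SE 0.06, edgeR adjusted p = 0.00027). In each of these 3 the groups were clearly apart. Aldh7a1 overlaps Phax on the opposite strand, with 7183 and 3599 counts in all.

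In this family 1 member rose. Aldh18a1, also called pyrroline-5-carboxylate synthase and an enzyme of proline synthesis, had 24.7 and 27.3 FPKM in shRybp and 20.5 and 21.5 FPKM in control (log2 change 0.27, SE 0.07, edgeR adjusted p = 0.010). Its call ended without shRybp replicate 2, the higher of its shRybp libraries (edgeR adjusted p = 0.13; range over its alternatives 0.00032 to 0.13). Aldh4a1, which completes proline breakdown, had 3.05 and 3.67 FPKM in shRybp and 3.99 and 4.16 FPKM in control and did not pass (log2 change -0.31, edgeR adjusted p = 0.051). It passed without shRybp replicate 2 (edgeR adjusted p = 0.033; range over its alternatives 0.0087 to 0.34). Of the 31-base words of Aldh4a1 45.9% are shared with another annotated gene, and its level is uncertain for that reason.

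Enzymes for general and retinoid aldehydes were low to moderate and did not pass. Aldh2, the mitochondrial enzyme that clears acetaldehyde, had 5.41 and 5.91 FPKM in shRybp and 6.50 and 6.01 FPKM in control (log2 change -0.18, edgeR adjusted p = 0.16). Aldh9a1, which works in carnitine synthesis, had 9.21 and 10.8 FPKM in shRybp and 10.7 and 12.1 FPKM in control, with overlapping groups (log2 change -0.22, edgeR adjusted p = 0.12). It passed without shRybp replicate 2 (edgeR adjusted p = 0.038; range over its alternatives 0.036 to 0.52). Aldh1a3, a retinoic acid-forming enzyme, had 1.19 and 1.27 FPKM in shRybp and 1.09 and 1.53 FPKM in control (log2 change -0.12). Aldh1a1, its relative, had 0.521 and 0.579 FPKM in shRybp and 1.00 and 1.04 FPKM in control, from 37 and 47 counts in shRybp and 87 and 82 in control. It was below the level for testing, and in a fit with no filter on low values its log2 change was -0.92 (SE 0.21, edgeR adjusted p = 0.0038). The near relative Aldh1a7 had 0.572 and 0.854 FPKM in shRybp and 0.769 and 0.758 FPKM in control. Aldh1a2 was not analysed here. The remaining members, Aldh1b1, Aldh1l2, Aldh3a2, Aldh3b1 and Aldh16a1, lay between -0.22 and 0.26 on the log2 scale and did not pass. With the replicate block Aldh16a1 and Aldh3a2 did (edgeR adjusted p = 0.020 and 0.036), and Aldh16a1 also with library totals (0.038).

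Cdo1 had the largest fall of all members. It encodes cysteine dioxygenase, which diverts cysteine from glutathione synthesis into sulfinate and onward to taurine. It had 3.26 and 3.37 FPKM in shRybp, against 10.6 and 10.8 FPKM in control, from 77 and 91 counts in shRybp and 306 and 283 in control. The replicates nearly coincided, and the level in shRybp was 30.3% of control (log2 change -1.72, SE 0.13, edgeR adjusted p = 1.8e-06). Other genes of cysteine and taurine metabolism moved both ways. Of 17 tested 6 rose (35.3%, beside 16.3% of all genes) and 4 fell (23.5%, beside 16.7%), with a median log2 change of 0.13. Slc6a6, the taurine transporter, rose (log2 change 0.68, SE 0.06, edgeR adjusted p = 9.0e-06), and so did the amino acid transporter gene Slc1a5 (0.84) and Ahcy (0.63), which clears S-adenosylhomocysteine. Sqor (-0.72), Suox (-0.48) and Mpst (-0.44), enzymes of sulfide and sulfite handling, fell. Csad, the next enzyme of taurine synthesis after Cdo1, did not pass (log2 change -0.24, edgeR adjusted p = 0.066) but did without shRybp replicate 2 (edgeR adjusted p = 0.017, range over its alternatives 0.017 to 0.39). Sqor was no longer called without control replicate 1 (edgeR adjusted p = 0.078) or without shRybp replicate 2 (0.073), with a range over its alternatives of 0.0055 to 0.099.

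**Figure D3:**
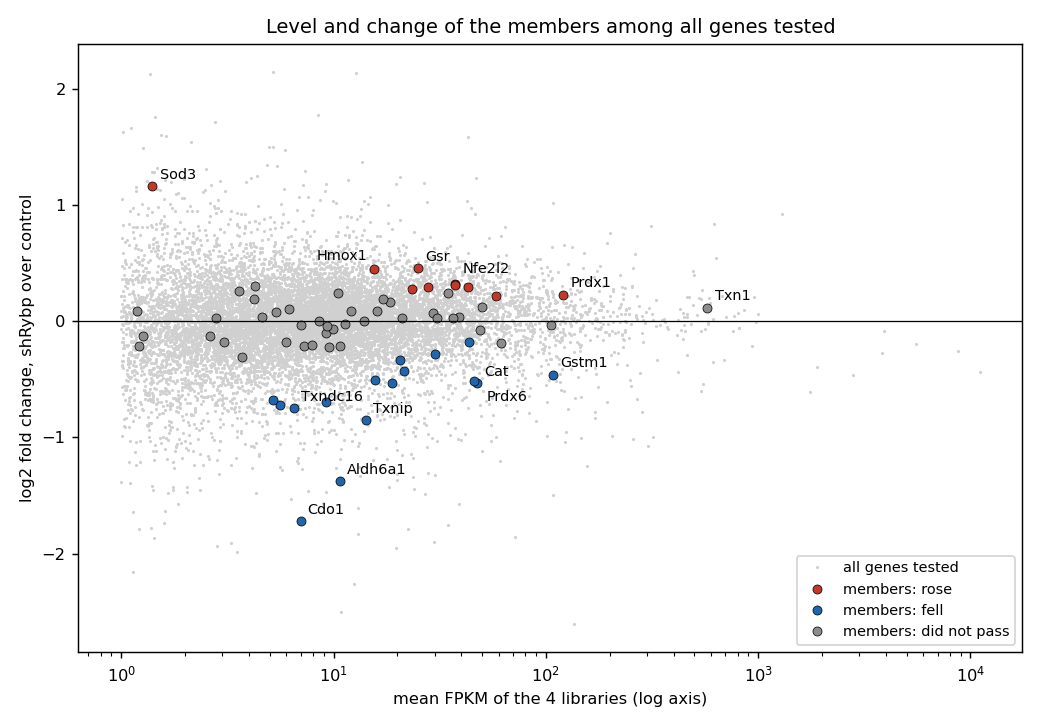
Mean FPKM over the 4 libraries on a log axis against the log2 change of shRybp over control, for all 12062 genes tested in pale grey and the members in colour. Members reach up to Txn1 at the right. Cdo1, Aldh6a1, Txnip and Sod3 lie away from the bulk of genes, and most others lie within it.

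NRF2 target genes outside the members rose more often than they fell. Of 22 tested 7 rose and 1 fell, 31.8% and 4.55% of the list, beside 16.3% and 16.7% of all genes. The median log2 change was 0.17. This list leaves out the members, of which 10 rose and 16 fell. NRF2 targets among the members were not counted apart. The aldose reductase gene Akr1b3 rose to a mean of 11.7 FPKM in shRybp, against 8.36 FPKM in control (log2 change 0.45, SE 0.07, edgeR adjusted p = 0.00027). Mafg, a small MAF partner of NRF2, rose (log2 change 0.44, edgeR adjusted p = 0.0018), as did the transporter gene Abcc4 (0.40, edgeR adjusted p = 0.0035). Srxn1, which repairs over-oxidised peroxiredoxins, rose by 0.41 (edgeR adjusted p = 0.0091), and Ephx1, an epoxide hydrolase gene, by 0.27 (edgeR adjusted p = 0.0080). Ugdh, which makes UDP-glucuronate, fell (log2 change -0.72, edgeR adjusted p = 1.2e-05). Slc7a11, the cystine transporter gene that NRF2 induces, was low, at a mean of 1.16 FPKM in each group, and did not pass (log2 change -0.05). Without each library in turn between 4 and 7 of the list rose, and 4 was reached without control replicate 1 or shRybp replicate 2. Srxn1 lost its call without control replicate 1 (edgeR adjusted p = 0.090) or shRybp replicate 2 (0.050), with a range over its alternatives of 0.00035 to 0.090. Ephx1 lost it without control replicate 1 (edgeR adjusted p = 0.092, range 0.00027 to 0.092).

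Of 12 partners and repressors of NRF2 tested, 1 rose (8.33%, beside 16.3% of all genes) and 2 fell (16.7%, beside 16.7%). The median log2 change was 0.01. Mafg, already counted above, rose. Bach1, which competes with NRF2 at the same DNA element and represses Hmox1, fell to a mean of 8.23 FPKM in shRybp, against 10.2 FPKM in control (log2 change -0.35, SE 0.08, edgeR adjusted p = 0.0045). Gsk3b also fell (log2 change -0.18, edgeR adjusted p = 0.044) but lost the call under 8 of 12 alternatives. Among these were DESeq2, the limma fits and leaving out control replicate 1, control replicate 2 or shRybp replicate 2 (log2 change -0.248 to -0.117 over all alternatives).

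Genes of glutathione turnover and the glutaredoxins were also mixed, with 3 of 13 tested rising and 1 falling (median log2 change 0.03). These were 23.1% and 7.69% of the list, beside 16.3% and 16.7% of all genes. Slc25a39, which carries glutathione into mitochondria, rose to a mean of 52.2 FPKM in shRybp, against 33.9 FPKM in control (log2 change 0.59, SE 0.08, edgeR adjusted p = 0.00021). Lap3 (0.30) and the mitochondrial glutaredoxin gene Glrx5 (0.37) rose, and the cytosolic glutaredoxin gene Glrx fell (-0.55, edgeR adjusted p = 0.00016). Glrx5 lost its call without control replicate 2 (log2 change 0.293 to 0.451 over its alternatives). Of 16 other aldehyde and ketone enzymes tested, 1 rose (6.25%, beside 16.3% of all genes) and 3 fell (18.8%, beside 16.7%). The median log2 change was -0.15. Akr1b3, also in the list of NRF2 targets, rose, and Dhrs1 (-0.47), Akr1e1 (-0.41) and Rdh11 (-0.21) fell. Rdh11 lost its call in DESeq2 and without control replicate 1, shRybp replicate 1 or shRybp replicate 2, among others (log2 change -0.235 to -0.167 over its alternatives).

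**Figure D4:**
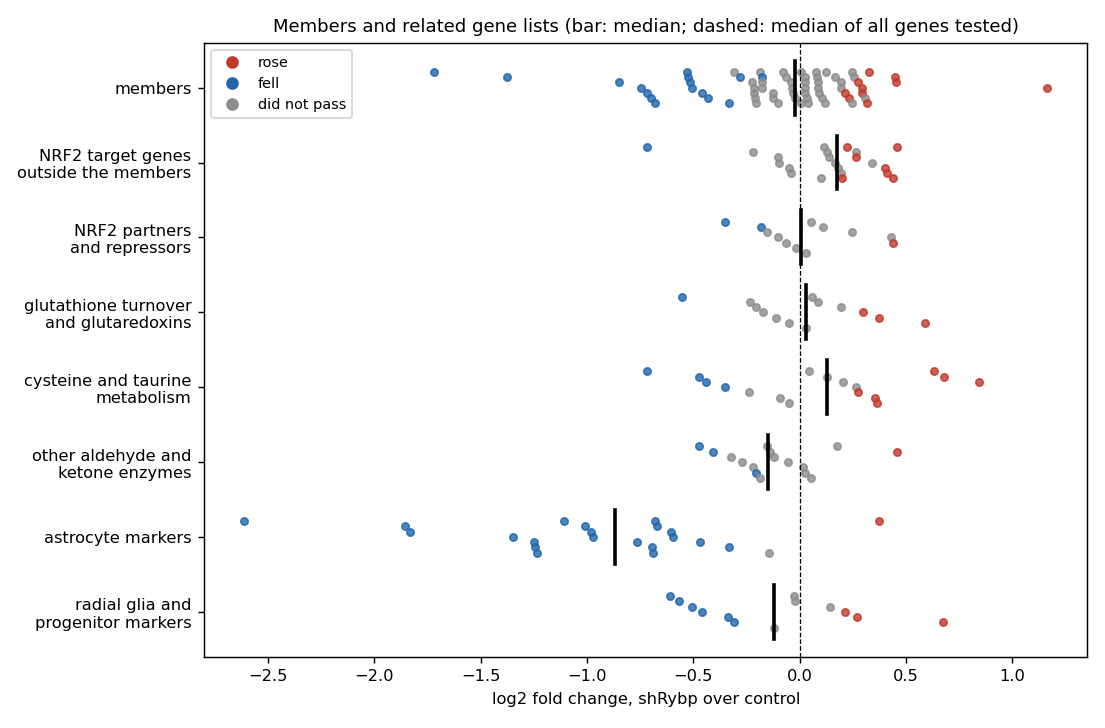
Log2 fold change of shRybp over control for each tested gene of the members, of 5 related lists and of the astrocyte and progenitor markers, with a bar at each median and a dashed line at the median of all genes tested. The median is 0.17 for NRF2 targets outside the members, -0.02 for the members and -0.87 for astrocyte markers.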

How the data were processed

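RNA from 2 shRybp and 2 control libraries was analysed from the authors' table. Per the file headers it gives deposited raw counts per gene and library, beside FPKM values that the authors computed. Within a library, FPKM followed from the count and 1 length per gene, to within a relative difference of 4.8e-08. Coordinates are on mm10 (submitters' processing notes). The sources used here give no aligner, counter, settings or strandedness. Every tabulated gene had at least 40 counts over the 4 libraries, so weaker members were not analysed here. A spreadsheet had turned 21 symbols into dates, which were restored from the identifiers (0 among the members). Chromosomes and strands came from GENCODE M21, in which all 70 members have the table's start and end. There, 15 members overlap a tabulated gene on the opposite strand, whose reads cannot be told apart without strand information.

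Counts of the 12062 genes with a mean of at least 1 FPKM were fitted with edgeR 4.0.16 in R 4.3.3 (TMM scaling, quasi-likelihood, two-sided test), with Benjamini-Hochberg adjustment over all genes and a threshold of 0.05. Standard errors are the absolute log2 fold change over the square root of the F statistic, and intervals are 95%. Depth limits precision to the stated intervals, which rest on 2 libraries a group. Replicates differed beyond counting noise (chi-square per degree of freedom 4.36 in shRybp and 5.18 in control). The shRybp against control test was also run on simulated counts of 12062 genes. It found 60 of 67 changes of 1.5-fold, 67 of 67 of 2-fold and 66 of 66 of 3-fold, and called 24 unchanged genes. The changed genes were drawn only from those above a minimum mean count, and were far fewer than the genes called in the data. These rates therefore do not cover the members with the lowest counts. Alternatives were library totals, DESeq2 1.42.0, other filters, limma 3.58.1 on log2(FPKM + 1), log2(FPKM + 0.1) and quantile-normalized values, leaving out each library, and a replicate block. Ranges over the alternatives pool the values of edgeR, DESeq2 and limma.

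The members, the gene lists and the rule for naming genes were chosen with earlier results of these data known. The rule names the 15 largest rises and falls among members past the threshold, a fixed set of core enzymes, the 3 smallest changes, and up to 6 genes per list; the few members and list genes named beyond it were chosen after their values were seen. Lists are described by counts and medians, with no test of the list, and a few of their genes are not reported here. Promoters are RefSeq windows on GRCm38.p6, matched by symbol. Shared 31-base words were counted between the longest coding transcript of a member and all GENCODE M21 transcripts of other genes.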

Additional observations from a re-analysis of the deposited data

How the results depend on the processing

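Under the 12 alternatives run, the members called higher numbered 8 to 15 and those called lower 13 to 22, beside 10 and 16 as reported, and no member changed direction with a call. Of the 26 members called, 20 kept the call under every alternative in which they were tested, 7 higher and 13 lower. Sod3, 1 of these, was too low for the fit that required a mean of 5 FPKM. The others were Aldh18a1, Gpx1, Mgst1, Prdx1, Prdx5 and Txndc12. Leaving out each library in turn gave 8 to 11 members higher and 13 to 16 lower, a median log2 fold change of the members of -0.03 to 0.00, and over all genes 1296 to 1640 higher and 1481 to 1760 lower, the lowest of both without shRybp replicate 2. The replicate numbers are not stated to pair the samples, and the deviations of same-numbered libraries from their group means had a correlation of 0.119 across 12062 genes. With the replicate block 15 members were higher and 22 lower, and 2676 and 2652 of all genes. Library totals in place of TMM shifted the median of all genes to 0.04, with 13 members higher and 15 lower. Limits are the 2 libraries per group, whose origin is unknown, and the low counts of some members, such as Gstm4 and Aldh1b1, whose standard errors are 0.289 and 0.233.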

Other observations

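Genes of repair and oxidant sensing outside the members moved in both directions. Of 13 methionine sulfoxide reductases, sestrins and related genes tested, 5 rose and 2 fell (median log2 change -0.04). These were 38.5% and 15.4% of the list, beside 16.3% and 16.7% of all genes. Park7, whose protein DJ-1 senses oxidants, fell to a mean of 32.6 FPKM in shRybp, against 50.1 FPKM in control (log2 change -0.66, SE 0.07, edgeR adjusted p = 2.3e-05). The sestrin genes went apart, with Sesn3 lower (-0.89) and Sesn2 higher (0.46, edgeR adjusted p = 0.0029). Nudt1 (0.41) and Ogg1 (0.41), which remove oxidised guanine from the nucleotide pool and from DNA, rose, and both lost the call without shRybp replicate 2 (edgeR adjusted p = 0.052 for Nudt1 and 0.070 for Ogg1, with ranges over their alternatives of 0.0014 to 0.071 and 0.0012 to 0.070). The number of genes of this list that rose was 1 to 4 without each library in turn, lowest without shRybp replicate 2.

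Selenium genes outside the members were divided, with 4 of 23 tested rising and 4 falling (median log2 change -0.09). Each count was 17.4% of the list, near the 16.3% rising and 16.7% falling among all genes. Lrp8, a receptor for selenoprotein P, rose (0.60, edgeR adjusted p = 2.3e-05), with Selenon (0.53) and the selenophosphate synthetase gene Sephs2 (0.41). Trnau1ap, which helps selenocysteine insertion, fell (-0.67, edgeR adjusted p = 0.00042), and so did the deiodinase gene Dio2 (-0.37). Among 6 oxidant-producing enzymes and related genes tested 1 rose and 3 fell (median -0.39). Maoa (-0.55) and Pdk4 (-1.48) were among those that fell, and Qsox2 rose (0.40). Of 5 retinoid genes tested Rxra rose (0.81, edgeR adjusted p = 9.0e-05).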
